A study of Mus musculus with 6 samples.

Results

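The cathepsins and legumain of peritoneal macrophages (PMs) were examined in RNA-seq of 6 mice. The 10 genes were taken by name, as the lysosomal proteases Ctsa, Ctsb, Ctsc, Ctsd, Ctsh, Ctsk, Ctsl, Ctss, Ctsz and Lgmn, out of 32875 genes with a record in the deposited counts. The rule names the genes and uses no measured value, although earlier results of these data were known when it was written. Control mice were 3 females from a cross of NZW with BALB/c, aged 33, 33 and 30 weeks and not susceptible to lupus. Diseased-BWF1 mice were 3 [NZB × NZW]F1 females aged 31, 31 and 34 weeks, a strain that develops a lupus-like disease with antibodies to DNA and damage to the kidney. PMs were sorted by flow cytometry as CD11b+ F4/80+ cells, and each mouse gave 1 library. The groups share the NZW parent and differ in the other parent as well as in disease, so strain and disease cannot be told apart. No treatment and no engineered allele is named for either group.

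Cathepsins are made as inactive precursors, carried to the lysosome mostly by mannose-phosphate receptors, and activated there by cutting at acid pH. They fall into 3 catalytic classes, the aspartic, serine and cysteine proteases, and legumain is a separate cysteine protease that cuts after asparagine and helps mature other cathepsins. In macrophages they digest engulfed material, trim the invariant chain of MHC class II and cut the endosomal Toll-like receptors into their active form.

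Library totals ranged from 3629901 to 5003360 counts, of which 89.1% to 93.0% fell on genes. Pearson's r of log2 CPM between mice ranged from 0.928 to 0.961 within control, from 0.944 to 0.951 within diseased-BWF1, and from 0.899 to 0.939 between the groups. The third control mouse, which was the youngest and had the smallest library, had the lowest mean r with its own group, 0.930. All 8 markers of large peritoneal macrophages passed the low-count filter and none was called. Their summed normalized counts lay between 37901 and 45432 in control and between 42328 and 43914 in diseased-BWF1 mice, with Adgre1, which encodes the sorted antigen F4/80, at 8288 ± 217 and 7384 ± 360 (SD, n = 3). Itgam held most of this sum, and single markers lay in different directions. Timd4 and Icam2 were lower in every diseased-BWF1 mouse, with log2 fold changes of -0.53 and -0.55 and edgeR adjusted p-values of 0.334 and 0.198, as was Adgre1 at -0.17. Fcgr1, Mertk, Csf1r and Itgam had log2 fold changes of 1.14, 0.44, 0.41 and 0.13 with overlapping groups, and Gata6 had -0.04. Summed markers of T cells stayed at 10.4 or less, those of neutrophils at 18.1 or less with Ly6g and Mpo at 0, those of mast cells at 3.05 or less, and those of eosinophils at 10.2 or less with Prg2 and Epx at 0. Dendritic cell markers summed to between 30.2 and 53.1 over all mice, and mesothelial and red cell markers to 3.31 or less. In the list for monocytes and small peritoneal macrophages, Fn1 held nearly all counts. The sum ranged from 162158 to 254457 in control and from 248347 to 263973 in diseased-BWF1 mice. It follows Fn1 alone and is not read as an amount of these cells. Ly6c2 had at most 1 raw count in any mouse, Cx3cr1 at most 9 and Plac8 at most 28. The 3 tested markers of that list, Irf4, Ccr2 and Fn1, had log2 fold changes of 1.32, 1.43 and 0.31 with edgeR adjusted p-values of 0.314, 0.441 and 0.588, and their groups overlapped. Mean normalized counts were 45.8 and 115 for Irf4 and 7.10 and 20.0 for Ccr2, in control and diseased-BWF1 mice. The part of any of these cells in the results was not tested.

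Together the 10 genes held a smaller share of the counts in every diseased-BWF1 mouse. Of all counts on genes, the 10 genes held 1.32%, 1.31% and 1.73% in controls 1 to 3 and 0.872%, 0.865% and 0.986% in diseased-BWF1 mice 1 to 3. The exact 95% binomial intervals were narrow, from 1.31% to 1.33% for the first control mouse for example, and cover counting error only. The means were 1.46% ± 0.239 and 0.908% ± 0.068 (SD, n = 3), a difference of -0.548 percentage points. No mouse of one group reached the range of the other, and the third control mouse stood above the other two. Without that mouse the difference was -0.410 percentage points. Ctsd made up 39.6% of the difference and Ctsb 31.7%, so these 2 genes together made up 71.4%. Ctsa made up 11.0%, Lgmn 9.11% and Ctsl 5.64%, while Ctsc and Ctsh lay on the other side with -2.12% and -0.593%. With Ctsd left out, the share of the other 9 genes differed by -0.331 percentage points. The share is given as a description, with no test. In bulk RNA, fewer cells of a type and less RNA per cell cannot be told apart.

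**Figure D1:**
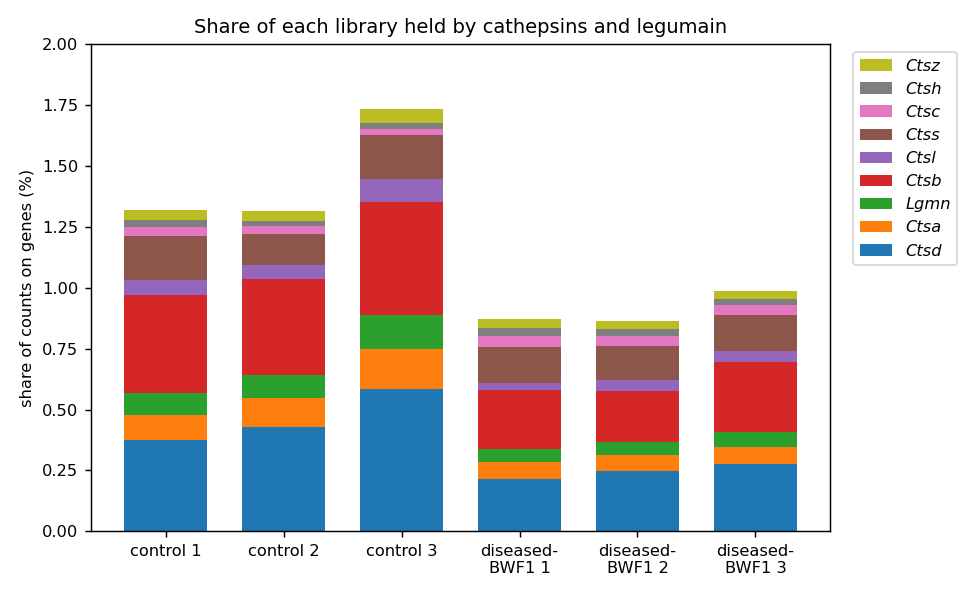
Share of the counts on genes held by each gene in each mouse, in percent, stacked so that the height of a bar is the sum over 9 genes, without Ctsk, which had at most 2 counts. The control bars reach 1.31% to 1.73% and the diseased-BWF1 bars 0.865% to 0.986%, and Ctsd and Ctsb form the largest blocks in all 6 mice.

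Gene by gene, edgeR's quasi-likelihood test called none of the 9 genes that passed the low-count filter, with a call set at an adjusted p under 0.05 and 1.5-fold. By the same rule 0.819% of the 10502 genes tested were called lower in diseased-BWF1 mice and 0.4% higher. An unadjusted p under 0.05 was reached by 6 of the 9 genes, against 13.2% of all genes tested. DESeq2 called 4 of the 9 lower, namely Ctsa, Ctsb, Ctsd and Lgmn, and none higher, against 2.29% of 10500 genes called lower and 1.27% called higher. The median log2 fold change of the 9 was -0.82, and that of all genes tested was 0.01. The diseased-BWF1 mice lay wholly below the control mice for 6 of the 9 genes and wholly above them for 1, where 11.1% and 9.82% of all genes tested showed such a separation. Exact two-sided permutation tests on single genes, which with 3 mice against 3 cannot give a p below 0.1, gave 0.1 for each of these 7 genes and 0.4 for Ctsh and Ctss. Groups that do not overlap always give 0.1 in this test, so for the 7 genes it only restates the separation.

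**Figure D2:**
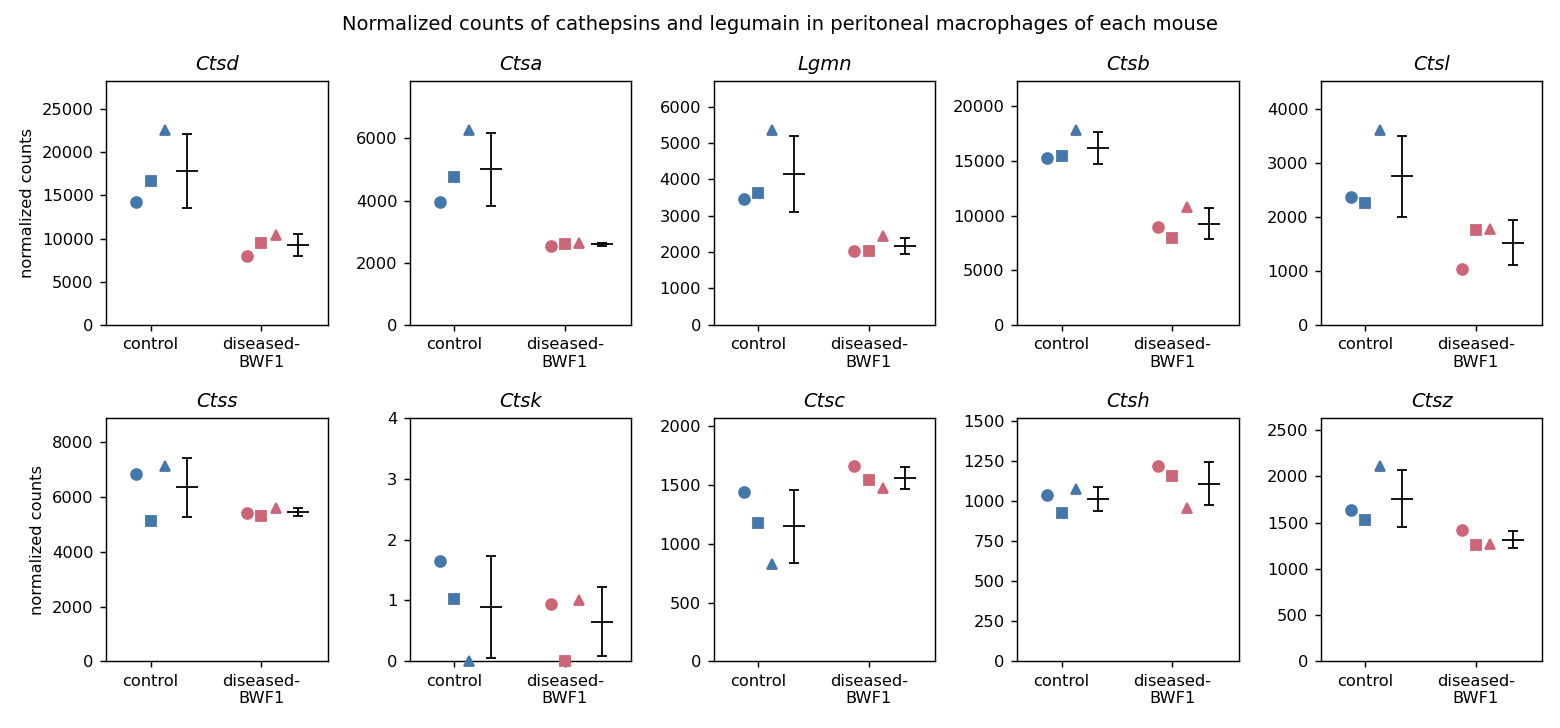
Normalized counts of each of the 10 genes in each mouse, in a panel per gene with its own linear axis from 0, with control and diseased-BWF1 mice side by side, circles, squares and triangles for replicates 1, 2 and 3, and bars for the mean ± SD. The groups stand apart with diseased-BWF1 mice lower for Ctsa, Ctsb, Ctsd, Ctsl, Ctsz and Lgmn and higher for Ctsc, and Ctsk has at most 2 raw counts in any mouse.

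Sequences before annotated starts are shown first, for the genes with the largest differences that had a window and for Ctss, whose groups overlapped. The windows tabulated for the genes come from RefSeq on build GRCm38.p6 and run from 250 bases before a gene's start to 50 bases after it, 300 bases in all. Such windows existed for 8 of the 10 genes, all but Ctsb and Ctsh, with a second start for both Ctsa and Lgmn. The sequence CACGTG is the core that basic helix-loop-helix factors such as TFE3, TFEB and MITF are known to bind, and it reads the same on both strands. For Ctsa and Lgmn only the second start is shown, which held CACGTG, while the first start held none. The stretches shown for Ctsa, Lgmn and Ctsl lie inside the bounds of their genes in GENCODE vM21. Most of the stretch shown for Ctsd, up to chr7:142388038, also lies inside its gene, with the CACGTG nearer to the start. Which start these cells use was not tested. The 250 bases before the start are printed 5′ to 3′ on the gene's strand, with every CACGTG in capitals. They lie at chr7:142387828-142388077 on the minus strand for Ctsd, at chr2:164833523-164833772 on the plus strand for the second start of Ctsa, at chr12:102439093-102439342 on the minus strand for the second start of Lgmn, at chr13:64370521-64370770 on the minus strand for Ctsl and at chr3:95526536-95526785 on the plus strand for Ctss.
Ctsd: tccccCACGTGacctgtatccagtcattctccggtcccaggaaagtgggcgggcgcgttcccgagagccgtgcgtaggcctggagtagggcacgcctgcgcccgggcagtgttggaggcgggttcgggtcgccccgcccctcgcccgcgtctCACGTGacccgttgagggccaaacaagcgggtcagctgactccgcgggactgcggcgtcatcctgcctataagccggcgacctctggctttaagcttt
Ctsa: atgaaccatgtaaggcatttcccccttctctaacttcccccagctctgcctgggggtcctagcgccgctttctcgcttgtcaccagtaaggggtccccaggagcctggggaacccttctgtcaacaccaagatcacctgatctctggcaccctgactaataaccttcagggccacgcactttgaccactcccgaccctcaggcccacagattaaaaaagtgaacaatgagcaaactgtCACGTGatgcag
Lgmn: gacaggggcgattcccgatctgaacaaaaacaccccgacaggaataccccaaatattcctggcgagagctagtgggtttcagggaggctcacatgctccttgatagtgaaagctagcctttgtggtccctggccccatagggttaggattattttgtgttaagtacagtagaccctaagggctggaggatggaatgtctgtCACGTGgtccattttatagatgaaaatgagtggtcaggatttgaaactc
Ctsl: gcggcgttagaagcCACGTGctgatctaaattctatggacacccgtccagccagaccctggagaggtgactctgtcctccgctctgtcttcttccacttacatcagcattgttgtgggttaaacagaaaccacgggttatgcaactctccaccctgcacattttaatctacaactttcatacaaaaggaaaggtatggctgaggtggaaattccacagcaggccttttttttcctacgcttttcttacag
Ctss: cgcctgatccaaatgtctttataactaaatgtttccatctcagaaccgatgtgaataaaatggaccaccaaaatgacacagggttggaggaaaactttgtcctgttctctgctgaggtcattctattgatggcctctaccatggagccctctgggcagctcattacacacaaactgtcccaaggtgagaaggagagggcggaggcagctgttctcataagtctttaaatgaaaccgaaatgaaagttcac
In the full windows, CACGTG was found in 4 of the 8 genes, against 8.09% of 27025 genes with a window. Ctsd held it at positions -245 and -98, counted on its strand from 1 at the start with no 0, Ctsa at -12 and, in the 50 bases after the start that are not printed, at 6, Lgmn at -49 and Ctsl at -236. The other 4 genes, Ctsc, Ctsk, Ctss and Ctsz, held none, nor did the first starts of Ctsa and Lgmn. The longer TCACGTGA, which contains CACGTG, was found in Ctsa and Ctsd and in 1.12% of all genes. The core of the CLEAR element, a still longer form of the same sequence, was found in none of the 8 and in 0.370% of all genes. GAGGAA, a form of the core bound by PU.1 and other ETS factors, was searched on both strands and found in Ctsc, Ctsk and Ctss, against 31.3% of all genes. These matches are a description of letters in the windows, and no binding was measured.

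Ctsd encodes cathepsin D, the main aspartic protease of the lysosome. It lies at chr7:142375911-142388038 on the minus strand (GENCODE vM21, GRCm38), and its CACGTG matches are shown above. Normalized counts of Ctsd were 14295, 16730.1 and 22626 in controls 1 to 3 and 7918, 9465 and 10382 in diseased-BWF1 mice 1 to 3. Every diseased-BWF1 mouse lay below every control mouse, and the third control mouse was the highest. The level was 0.514-fold of control with a 95% confidence interval of 0.362 to 0.730, and the log2 fold change of -0.96 ± 0.22 (SE) had an edgeR adjusted p of 0.101. DESeq2 gave a log2 fold change of -0.95 and an adjusted p of 0.000694, and called it lower. All its counts lay on 1 curated record, and 31.3% of the 75-base sequences of its transcript also occur in the overlapping gene model Gm49369.

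Ctsa encodes cathepsin A, a serine carboxypeptidase that also protects β-galactosidase and neuraminidase in a shared complex. It lies at chr2:164832873-164841032 on the plus strand and overlaps Neurl2 and Pltp on the other strand. Normalized counts of Ctsa were 3956, 4763 and 6279 in controls 1 to 3 and 2548, 2598 and 2647 in diseased-BWF1 mice 1 to 3. The diseased-BWF1 mice lay close together and below all control mice, with an SD of 49.4 against 1179 among control mice. The fold of control was 0.517 (95% confidence interval 0.378 to 0.706), with a log2 fold change of -0.95 ± 0.19 (SE). The edgeR adjusted p was 0.0733 and the DESeq2 adjusted p 0.00015.

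Among the cysteine proteases, Ctsb encodes cathepsin B, an abundant endopeptidase that also removes dipeptides from the end of a chain. The gene is at chr14:63122462-63145923 on the plus strand and overlaps Fdft1 on the other strand. Its normalized counts were 15299, 15431 and 17859.6 in controls 1 to 3 and 8986, 7959 and 10756 in diseased-BWF1 mice 1 to 3. The gap between the groups was wider than the spread within either. Ctsb lay at 0.567-fold of control (95% confidence interval 0.430 to 0.747), with a log2 fold change of -0.82 ± 0.17 (SE) and an edgeR adjusted p of 0.0800. The DESeq2 adjusted p was 8.86e-05.

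The counts of Ctsb were divided between a curated and a predicted RefSeq record of the gene. The curated record had 7689 ± 249.9 normalized counts in control and 4834 ± 612 in diseased-BWF1 mice (SD, n = 3), a ratio of 0.629. The predicted record had 8508 ± 1621 and 4399 ± 837, a ratio of 0.517. The third control mouse had the highest ratio of predicted to curated counts, 1.39, and the other 5 mice lay between 0.804 and 1.01. Both records were lower in every diseased-BWF1 mouse, and the curated record of that control mouse was the lowest of its group.

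Ctsl encodes cathepsin L, an endopeptidase that, like cathepsin B, acts on a wide range of proteins. Its locus is chr13:64359337-64370890 on the minus strand. Normalized counts of Ctsl were 2368, 2264 and 3613 in controls 1 to 3 and 1032, 1757 and 1774 in diseased-BWF1 mice 1 to 3. The groups did not overlap, but both had 1 mouse away from the other 2, the third control mouse above and the first diseased-BWF1 mouse below. At 0.550-fold of control (95% confidence interval 0.352 to 0.858), its log2 fold change was -0.86 ± 0.27 (SE). Neither tool called it, with an adjusted p of 0.233 in edgeR and 0.0554 in DESeq2. The curated record held 2.60% of its counts in control and 3.03% in diseased-BWF1 mice, and a predicted record held the others. With the curated record alone, which had 34 to 99 raw counts per mouse, the log2 fold change was -0.67 ± 0.44 (SE). The edgeR adjusted p was then 0.692.

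Ctss encodes cathepsin S, which stays active at neutral pH and removes the last part of the invariant chain from MHC class II in professional antigen-presenting cells. It is located at chr3:95526786-95556403 on the plus strand, 17423 bases from Ctsk. Normalized counts of Ctss were 6825, 5103 and 7100.4 in controls 1 to 3 and 5423, 5303 and 5588 in diseased-BWF1 mice 1 to 3. The diseased-BWF1 values lay inside the control range. The fold of control was 0.853 with a 95% confidence interval of 0.651 to 1.12, and the log2 fold change of -0.23 ± 0.17 (SE) had an edgeR adjusted p of 0.617. Ctsk, the bone-resorbing cathepsin K of osteoclasts, had raw counts of 2, 1 and 0 in controls 1 to 3 and 1, 0 and 1 in diseased-BWF1 mice 1 to 3. It was below the low-count filter and was not tested, and 3 counts in a library correspond to 0.652 to 0.889 CPM.

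Ctsc, Ctsh and Ctsz encode cathepsins that act as exopeptidases. Cathepsin C, also called dipeptidyl peptidase I, activates granule serine proteases and lies at chr7:88278085-88310888 on the plus strand. Normalized counts of Ctsc were 1439, 1182 and 826 in controls 1 to 3 and 1659, 1541 and 1474 in diseased-BWF1 mice 1 to 3. It was the 1 gene of the 10 whose diseased-BWF1 mice all lay above the control mice, and the third control mouse, the highest for most of the others, was here the lowest. The fold of control was 1.35 (95% confidence interval 0.967 to 1.88), with a log2 fold change of 0.43 ± 0.21 (SE) and adjusted p-values of 0.436 in edgeR and 0.449 in DESeq2.

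Cathepsin H is an aminopeptidase, and Ctsh lies at chr9:90054152-90076089 on the plus strand. Normalized counts of Ctsh were 1038, 926 and 1074 in controls 1 to 3 and 1216, 1155 and 957 in diseased-BWF1 mice 1 to 3. The groups overlapped, and the fold of control of 1.09 had a 95% confidence interval of 0.861 to 1.38 and an edgeR adjusted p of 0.771. Cathepsin Z, also called cathepsin X, is a carboxypeptidase, and Ctsz lies at chr2:174427493-174439039 on the minus strand. Its normalized counts were 1635, 1529 and 2105 in controls 1 to 3 and 1418, 1259 and 1271 in diseased-BWF1 mice 1 to 3. The groups did not overlap, and the difference was smaller than for Ctsd, Ctsa, Lgmn, Ctsl or Ctsb. At 0.745-fold of control (95% confidence interval 0.571 to 0.973), Ctsz had a log2 fold change of -0.42 ± 0.16 (SE) and an edgeR adjusted p of 0.328.

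Lgmn, the gene of legumain, lies at chr12:102394084-102439813 on the minus strand. Its normalized counts were 3454, 3636 and 5366 in controls 1 to 3 and 2041, 2031 and 2431 in diseased-BWF1 mice 1 to 3. All diseased-BWF1 mice lay below all control mice, and the third control mouse again stood above the others. The fold of control was 0.519 (95% confidence interval 0.371 to 0.726), with a log2 fold change of -0.95 ± 0.21 (SE). The adjusted p was 0.0927 in edgeR and 0.000818 in DESeq2.

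**Figure D3:**
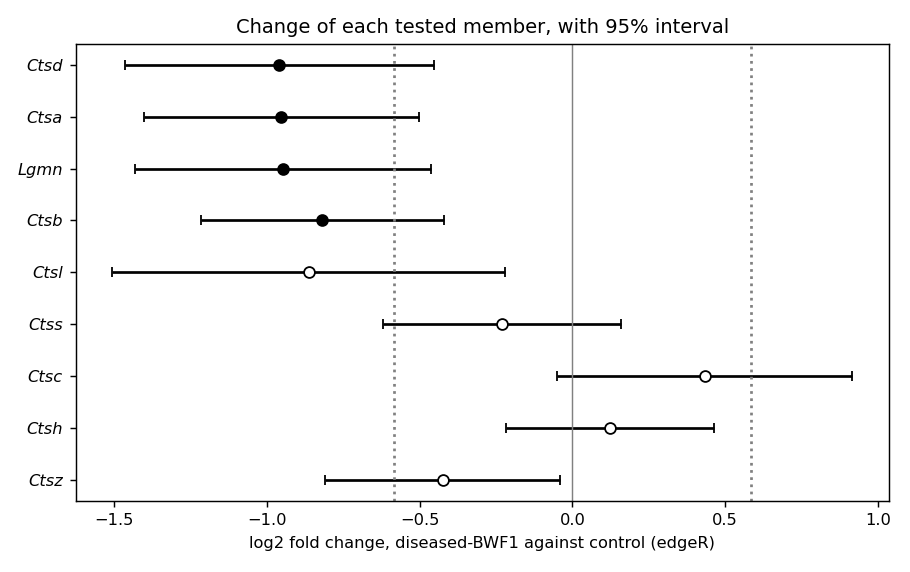
Log2 fold change of diseased-BWF1 against control for the 9 tested genes, with 95% confidence intervals from edgeR, filled for the 4 genes called lower with DESeq2 and open for the others. The dotted lines mark a fold change of 1.5, and Ctsd, Ctsa, Lgmn, Ctsl and Ctsb lie between -0.96 and -0.82, to the left of Ctsz at -0.42, Ctss at -0.23, Ctsh at 0.12 and Ctsc at 0.43.

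The third control mouse was the highest of all 6 mice for 7 of the 9 tested genes and the lowest for Ctsc. Without it, the edgeR log2 fold changes were -0.75 for Ctsd, -0.75 for Ctsa, -0.74 for Ctsb, -0.71 for Lgmn and -0.61 for Ctsl, with adjusted p-values between 0.0813 and 0.351. For Ctsc the log2 fold change was 0.25 without that mouse, and its groups still did not overlap. Over all 18 alternative fits the sign of each of the 9 genes stayed as reported.

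**Figure D4:**
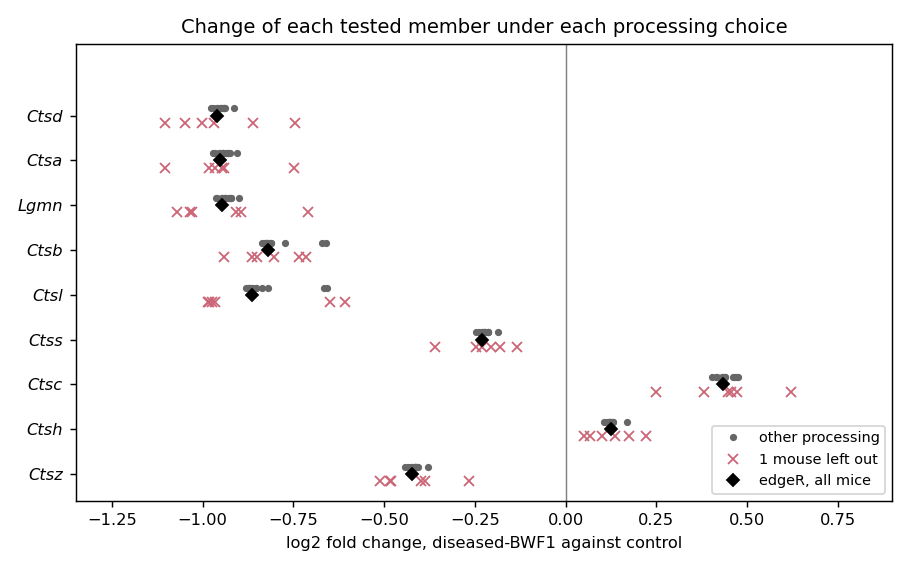
Log2 fold change of diseased-BWF1 against control for each of the 9 tested genes with edgeR on all mice (black), with each of 12 other processing choices (grey) and with each mouse left out in turn (red crosses). No point crosses 0, and with a mouse left out Ctsl ranges from -0.99 to -0.61, Ctsd and Ctsa from -1.10 to -0.75 and Lgmn from -1.07 to -0.71.

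Ratios of raw counts within a library, which no scaling between libraries enters, restate these differences for pairs of genes. The pairs were chosen after the values were seen, so the ratios are a description with no test. The ratio of Ctss to Ctsd was 0.477, 0.305 and 0.314 in controls 1 to 3 and 0.685, 0.560 and 0.538 in diseased-BWF1 mice 1 to 3. All diseased-BWF1 ratios lay above all control ratios. The ratio of Ctsc to Ctsd was 0.069 ± 0.032 in control and 0.171 ± 0.035 in diseased-BWF1 mice (SD, n = 3), and that of Ctsz to Lgmn was 0.429 ± 0.041 and 0.612 ± 0.086. These also did not overlap between the groups. For Ctsb to Ctsd the ratio was 0.927 ± 0.141 in control and 1.00 ± 0.150 in diseased-BWF1 mice, and for Ctsl to Ctsd it was 0.154 ± 0.016 and 0.162 ± 0.029, with overlapping groups.

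Levels of different genes were compared as normalized counts per kb of transcript, while the shares and counts given elsewhere are not scaled for length. In control mice the level per kb was 8408 ± 2014 for Ctsd, 4681 ± 799 for Ctss, 3415 ± 304 for Ctsb and 2087 ± 530 for Lgmn (SD, n = 3). The ranges per kb of Ctsd and Ctss were separate, as were those of Ctsb and Lgmn, while the lowest control mouse for Ctss and the highest for Ctsb were almost level, at 3765.8 and 3765.5 per kb, so that these neighbours are not taken to differ. The length used for each gene was that of the longest GENCODE vM21 transcript linked to a curated record. For Ctsb the predicted record held a similar number of counts. For Ctsl the curated record held only 2.60% of its counts in control and 3.03% in diseased-BWF1 mice. The ranges per kb of Lgmn, Ctsl, Ctsa and Ctsz overlapped from each gene to the next, as did those of Ctsh and Ctsc. Further down, the levels per kb were 1394 ± 381 for Ctsl, 1371 ± 323 for Ctsa, 1219 ± 213 for Ctsz, 626 ± 47.7 for Ctsh, 461 ± 123 for Ctsc and 0.592 for Ctsk. In diseased-BWF1 mice the level per kb of Ctsd, 4351 ± 585, overlapped that of Ctss, 4013 ± 106, and Ctsb followed with 1947 ± 298. Lgmn followed at 1089 ± 115 per kb. The levels per kb of Ctsz (913 ± 61.5), Ctsl (772 ± 215), Ctsa (712 ± 13.6), Ctsh (686 ± 83.7) and Ctsc (625 ± 37.5) overlapped from each gene to the next, and Ctsk was at 0.431.

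Of 66 other genes of the pathway, in 7 lists, 45 passed the filter, and edgeR called 5 lower and none higher, against 0.819% and 0.4% of all genes tested. The 5 came from 5 lists, and DESeq2 called the same 5 and another 3 lower and none higher, against 2.29% and 1.27% of all genes. The lists were written with earlier results of these data known. Of 14 other cathepsins, 3 passed the filter and none was called. Ctso, Ctsf and Ctse had log2 fold changes of -0.12, -0.26 and -0.92 with edgeR adjusted p-values of 0.733, 0.708 and 0.407, and 9 of the others had no count in any mouse.

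Of 13 cathepsin inhibitors, 12 were in the files and 5 passed the filter, with a median log2 fold change of -1.03. Serpinb6a, an intracellular serpin, was called lower, from 1517 ± 277 to 748 ± 73.9 normalized counts (SD, n = 3), with a log2 fold change of -1.03 ± 0.17 (SE) and an edgeR adjusted p of 0.0454. Cstb, the cytosolic inhibitor stefin B, and Ctla2b, related to cathepsin propeptides, were called lower only by DESeq2, with edgeR log2 fold changes of -1.26 and -1.81 and adjusted p-values of 0.0550 and 0.0946. Cst3, the secreted inhibitor cystatin C and the inhibitor with the most counts, had 8970.1 ± 1768 and 12251 ± 1489 normalized counts. Its diseased-BWF1 mice all lay above the control mice, and it was not called, with a log2 fold change of 0.44 ± 0.19 (SE) and an edgeR adjusted p of 0.388.

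Glb1, the gene of the lysosomal β-galactosidase that forms a complex with cathepsin A, had the lowest edgeR adjusted p of the 45 genes tested. Its normalized counts were 962, 1179 and 1274 in controls 1 to 3 and 246, 239.7 and 144 in diseased-BWF1 mice 1 to 3, with no overlap. The log2 fold change was -2.45 ± 0.24 (SE) with an edgeR adjusted p of 0.00791, and it was called with any single mouse left out. All 6 genes of its list, the partners of the proteases, had a log2 fold change below 0, with a median of -0.41, against 49.2% of all genes tested below 0. Grn, the progranulin precursor cut by cathepsins, had a log2 fold change of -0.63 and was called lower only by DESeq2, with an adjusted p of 0.105 in edgeR. Psap, the precursor of the saposins, had -0.42 and an edgeR adjusted p of 0.362.

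Among other lysosomal peptidases, 5 of 6 genes passed the filter. Dpp7, a dipeptidyl peptidase, had 472, 548 and 693 normalized counts in controls 1 to 3 and 172, 226 and 162 in diseased-BWF1 mice 1 to 3. The groups were far apart, with a log2 fold change of -1.62 ± 0.20 (SE) and an edgeR adjusted p of 0.0192, although the call was lost in 3 of the 6 fits that left out a mouse, with adjusted p-values of up to 0.0883. Tpp1, the tripeptidyl peptidase, and Scpep1, a serine carboxypeptidase, had log2 fold changes of -0.47 and -0.06 and were not called. Prcp was higher in every diseased-BWF1 mouse, at 418 ± 24.2 against 295 ± 30.2 normalized counts in control (SD, n = 3). Its log2 fold change of 0.49 was not called, with adjusted p-values of 0.145 in edgeR and 0.0600 in DESeq2. Of the 5 genes, 2 were lower without overlap and 1 higher, against 11.1% and 9.82% of all genes tested.

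Of 4 transcription factors of the MiT family that act on lysosomal genes, Tfe3 was called lower. Normalized counts of Tfe3 were 824, 704 and 753 in controls 1 to 3 and 425, 434 and 363 in diseased-BWF1 mice 1 to 3, which did not overlap. The log2 fold change was -0.91 ± 0.13 (SE) with an edgeR adjusted p of 0.0304. Mitf, Tfec and Tfeb had log2 fold changes of 0.00, -0.42 and -0.08 and were not called.

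None of 11 genes for delivery to the lysosome was called, and their median log2 fold change was 0.20. M6pr, the cation-dependent mannose-phosphate receptor, had 784 ± 2.97 and 789 ± 37.2 normalized counts. Lrp1, an endocytic receptor, and Sort1, the sorting receptor sortilin, had log2 fold changes of 0.38 and 0.33 with edgeR adjusted p-values of 0.638 and 0.541. Sorl1 had 22.7 ± 12.6 normalized counts in control and 59.3 ± 17.7 in diseased-BWF1 mice (SD, n = 3), with no overlap. Its log2 fold change of 1.37 had an edgeR adjusted p of 0.240. Of the 11 genes, 3 were lower without overlap and 2 higher, against 11.1% and 9.82% of all genes tested.

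Of 12 genes in the list of known substrates, which also holds MHC class II genes and Unc93b1, 11 passed the filter and Tlr8 was called lower. Tlr8, an endosomal RNA receptor, had 1241 ± 62.3 normalized counts in control mice against 681 ± 101 in the diseased group (SD, n = 3). The log2 fold change of -0.87 ± 0.15 (SE) had an edgeR adjusted p of 0.0450. Unc93b1, which escorts these receptors to endosomes, and Tlr13 had log2 fold changes of 0.00 and -0.25. Tlr7, another endosomal RNA receptor, had 884 ± 80.5 normalized counts in control mice against 482 ± 184 in the diseased group (SD, n = 3), with no overlap. Its log2 fold change of -0.88 ± 0.28 (SE) was not called, with adjusted p-values of 0.229 in edgeR and 0.0668 in DESeq2. Cd74, the invariant chain that cathepsin S cuts, had 1936, 218 and 197 normalized counts in controls 1 to 3 and 1628, 263 and 196 in diseased-BWF1 mice 1 to 3. For Cd74 the first mouse of each group was thus far above the others, and the groups overlapped. The MHC class II genes H2-Aa, H2-Ab1 and H2-Eb1 showed the same. H2-Aa had 564, 77.3 and 54.9 normalized counts in controls 1 to 3. In diseased-BWF1 mice 1 to 3 it had 521, 118 and 70.5. Serpinb6a, Tfe3 and Tlr8 were not called by edgeR in any of the 6 fits with a mouse left out, with adjusted p-values between 0.0637 and 0.168 over the 3 genes.

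**Figure D5:**
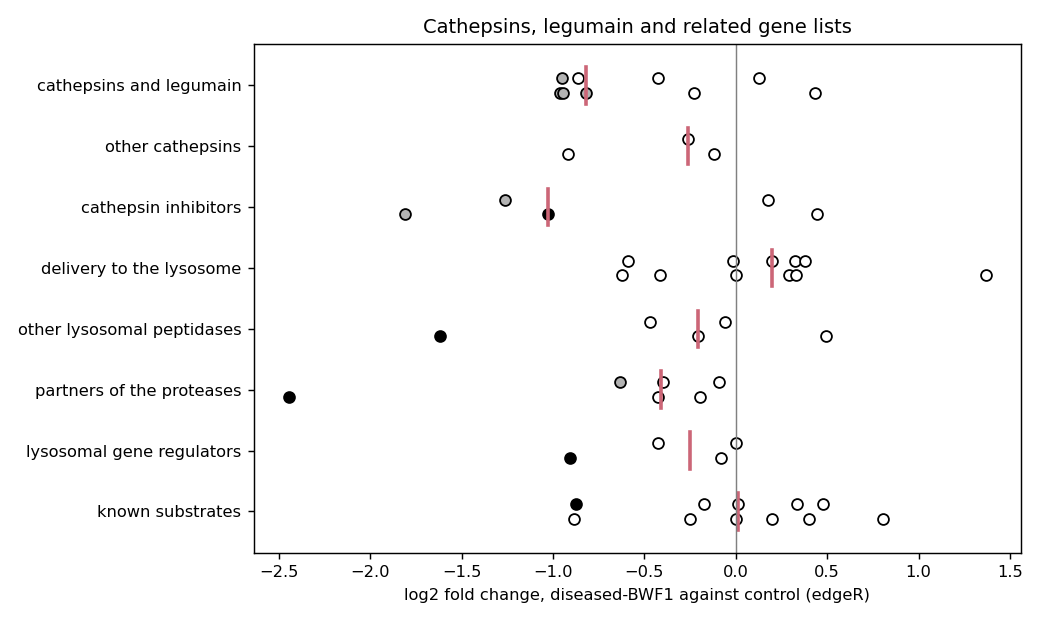
Log2 fold change of each tested gene in the 7 pathway lists and in the list of cathepsins and legumain, with red bars for the medians, black points for genes called by edgeR, grey for genes called only by DESeq2 and white for neither. Glb1 at -2.45 and Dpp7 at -1.62 stand lowest among the genes edgeR called, and no gene is called above 0.

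The 5 other genes whose profiles over the 6 mice were most like the mean of the 9 tested genes were found by the root-mean-square difference of log2 CPM centred on each gene's mean. They were Ssh3, a phosphatase of cofilin, at 0.033, P2rx4, an ATP-gated channel found on lysosomes, at 0.051, Sat1, which acetylates polyamines, at 0.052, Tpd52 at 0.057 and Natd1 at 0.057. The mean profile was highest in the third control mouse, at 0.46 above its own average, and lowest in the first diseased-BWF1 mouse, at -0.30. Of the 9 genes themselves, Ctsz was nearest to the mean profile, at 0.105, and Ctsc farthest, at 0.590. This likeness is over 6 mice and is a description.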

How the data were processed

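The authors sequenced stranded mRNA libraries of sorted PMs and deposited, per mouse, whole-number counts for 107193 RefSeq transcript records, without normalization. The submitters' processing notes name Salmon 0.8.0, DESeq2 and GRCm38.p6 without roles. Salmon estimates counts, so the whole numbers may be rounded, and reads shared by records may have been divided between them. No other column was present.

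Records were matched to a RefSeq gene table, 45749 with the same version and 40709 with another, and summed per gene. The 20735 unmatched records were left out. edgeR 4.0.16 (filterByExpr, TMM, quasi-likelihood test, R 4.3.3) was run on all 6 mice without covariates, with Benjamini-Hochberg adjustment over 10502 genes and a call at an adjusted p under 0.05 and 1.5-fold. Normalized counts used DESeq2 1.42.0 size factors, 0.875 to 1.21. DESeq2, limma-voom (limma 3.58.1), other scalings, filters, age, a replicate block, curated records alone and leaving out each mouse were alternatives. Each mouse was a separate animal with 1 library, and no pair of libraries agreed within sampling noise, the variance being at least 9.57 times that of sampling. Code was tested on simulated data. A floor of 3 counts was 0.652 to 0.889 CPM, for counting error only. Positions and transcript lengths are from GENCODE vM21 on GRCm38. Where both curated and predicted records exist, a record's length may differ from that used.

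The genes named are all 10 members, every list gene called by edgeR, the up to 3 genes of each list with the most counts and the 5 most alike genes. List genes called only by DESeq2 and single markers of cell types were named after their values were seen. So were Tfeb, Cd74, Tlr7, H2-Aa, H2-Ab1, H2-Eb1, Prcp and Sorl1. The members and lists were chosen with earlier results of these data known. One marker list is not reported here.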

Additional observations from a re-analysis of the deposited data

How the results depend on the processing

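edgeR called 128 genes in all, and the count was 373 with DESeq2, 259 with no low-count filter, 84 with at least 10 counts in every library, 16 with curated records alone, 254 with curated records and DESeq2 (chosen after seeing the data) and 21 to 56 with a mouse left out. Of the cathepsins and legumain it called 0, against 4 with DESeq2, 4 with curated records and DESeq2, 2 with no low-count filter (Ctsa and Lgmn), and 0 in each fit with a mouse left out. The causes were not tested. The replicate numbers were not taken to pair the mice, since their deviations correlated at 0.118, 0.006 and 0.157 and the second diseased-BWF1 mouse correlated more with the first control mouse, at 0.037. With the replicate block 38 genes and no cathepsin were called. The share of counts differed by -0.548 percentage points, by -0.331 without Ctsd, and by -0.618 to -0.410 with a mouse left out. Of 162 other values of the 9 tested genes, 152 kept their direction and their side of the threshold and 10 were newly called. Among the 5 pathway genes edgeR called, the call was lost with curated records alone for Glb1 (adjusted p = 0.0595), Serpinb6a (0.111), Tlr8 (0.111) and Tfe3 (0.126), and with the replicate block for Dpp7 (0.0564), Tfe3 (0.0823), Tlr8 (0.0837) and Serpinb6a (0.0869). It was also lost for Serpinb6a and Tlr8 with age as a covariate (0.0581 and 0.0662), for Serpinb6a with upper-quartile factors (0.0537) and for Tlr8 with library size alone (0.0581).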
